A study of Mus musculus with 5 samples.

Results

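The chemokine Cxcl12 and its receptors Cxcr4 and Ackr3 were examined in cells sorted from the papilla of the mouse kidney, where the medulla ends. Every probe was taken whose name in the array tables, or whose current symbol or synonym by RefSeq accession, is one of these genes. This gave 5 of the 41174 non-control probes: 2 for Cxcl12, 2 for Cxcr4 and 1 for Ackr3, which the array carries under its older name Cxcr7. The mice were of the strain given as H2B-GFP, a histone-GFP fusion. They received doxycycline as embryos and were then followed without it to an age of about 2 to 3 months. Each division dilutes the fusion, so cells with few divisions since the pulse retain it. Collagenase freed the cells of the papilla, and FACS of the live ones gave those with label (GFP+) and those without (GFP-). Both populations share the strain, the pulse, the age and the tissue. The labelled differences between them are the sort and the array dye, which was not swapped. The promoter that drives the fusion, the number of animals behind a sort and the number of cells sorted are not given in the sources used here. A GFP- cell is one without detected label, which the sort alone does not equate with a cell that has divided.

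CXCL12, also called stromal cell-derived factor, is a secreted chemokine made largely by stromal and endothelial cells. It acts through CXCR4, a receptor coupled to inhibitory G proteins that directs cell migration and holds blood progenitors in the bone marrow. ACKR3 binds the same ligand, signals mainly through arrestins rather than G proteins, and takes up and degrades the chemokine. In the developing kidney the pathway is needed for normal formation of blood vessels, and in the papilla it has been studied in the movement of label-retaining cells during repair. The comparison asks how far ligand and receptor transcripts differ between papilla cells that kept an embryonic label and those that did not.

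The data are 5 biological replicates, each 1 Agilent array with 2 colours. GFP+ cells were labelled with Cy5, and GFP- cells with Cy3. No dye was swapped, so a dye effect shared by all arrays is part of every ratio. No source states which of the deposited intensities is which dye. That ratios here are GFP+ over GFP- is likely, because Agilent ratios are by convention Cy5 over Cy3 and the files of replicates 3 to 5 list GFP- before GFP+. Should it be the reverse, every sign changes. Above background means, for a channel, at least 3 times the signal of the negative control probe on the same array. Between 57.7% and 75.3% of probes were above background in the GFP- channel, and between 59.4% and 72.5% in the GFP+ channel. The log2 ratios of replicate 1 correlated weakly and negatively across probes with those of the other arrays, with r from -0.17 to -0.06, against 0.05 to 0.21 among the others. The probes are not independent, and these correlations are descriptive. Results that rest on replicate 1 are therefore given with and without it. RNA from each sort was amplified by a global PCR method before labelling. In sorted bulk samples, fewer cells of a type and less RNA per cell cannot be told apart.

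Of the tested probes, limma called 0 of 29814 at an adjusted p of 0.05, a background of 0% called, with 0.834 as the lowest adjusted p. Before adjustment, 1433 probes, or 4.81%, had p under 0.05. None of the probes of Cxcl12, Cxcr4 or Ackr3 was called, so the values below are levels and differences that did not pass the test against the spread between arrays. The number of arrays, 5, limits the precision of every mean.

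Cxcl12 alone of these genes kept the same sign on every array: its brighter probe, A_51_P172502, was brighter in the GFP- channel on all 5. In the GFP- channel its intensity was 636, 3140.2, 2500.3, 10217 and 7129 on replicates 1 to 5. In the GFP+ channel it was 344, 1242, 976, 708 and 566. The probe was above background in both channels on all 5 arrays, at 35.9 to 387 times the negative control in GFP- cells and 14.4 to 48.4 times in GFP+ cells. The GFP- channel varied far more between arrays than the GFP+ channel, and across arrays the channels overlapped only because GFP- cells of replicate 1 were dimmer than GFP+ cells of replicates 2, 3 and 4. Within an array, the intensity in GFP- cells was 1.85, 2.53, 2.56, 14.4 and 12.6 times that in GFP+ cells. Replicates 4 and 5 thus stood apart from replicates 1 to 3 in the size of the difference and not in its direction.

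**Figure D1:**
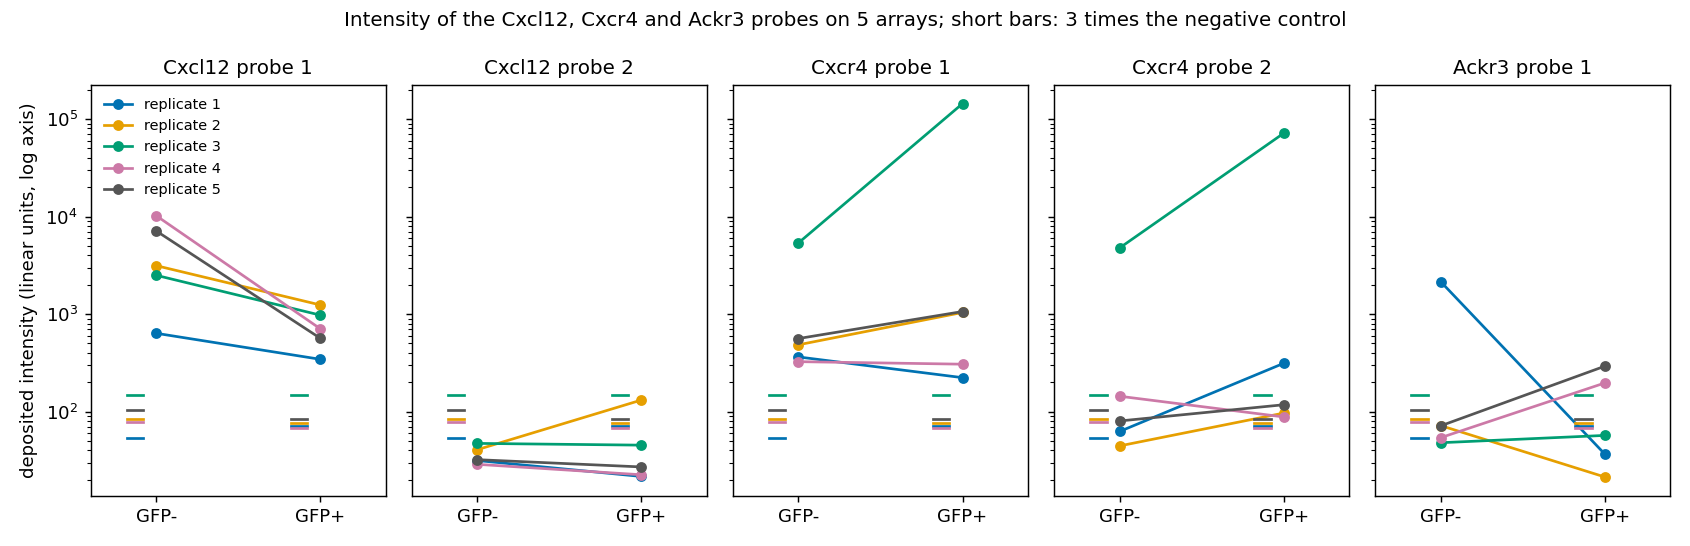
Deposited intensity (log scale, arbitrary units) of the 5 probes in the GFP- and GFP+ channel of each array, with the level of 3 times the negative control marked. Cxcl12 probe 1 lies above that level in both channels on all 5 arrays, and Cxcr4 is brightest by far on replicate 3.

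After an offset of 50 and loess normalization within each array, the log2 ratio of Cxcl12 was -0.48, -1.50, -1.02, -4.16 and -3.81 on replicates 1 to 5. The mean was -2.19 ± 1.68 (SD, n = 5), with a 95% interval from -3.84 to -0.54 in limma before any adjustment. The unadjusted p was 0.0165 and the adjusted p over all tested probes was 0.834 in limma. The exact two-sided sign-flip permutation test gave p = 0.0625, the smallest that 5 arrays allow. A ratio below 0 on all 5 arrays was found for 823 of 29712 probes with 5 values, or 2.77%. On replicate 4, 3.51% of tested probes had a ratio as low as that of Cxcl12, and on replicate 5, 2.65%, whereas on replicate 1 the share was 34.3%. The mean stayed below 0 when any 1 array was left out, from -2.62 without replicate 1 to -1.70 without replicate 4. The unadjusted p in limma passed 0.05 without replicate 4, at 0.0552, and without replicate 5, at 0.0591.

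The other Cxcl12 probe, A_52_P685021, was not well above background in the GFP- channel on any array. In the GFP+ channel it passed on 1 of 5 arrays, replicate 2, where its intensity was 132, or 5.13 times the negative control. With the GFP- channel set at its detection limit, GFP+ was at least 1.57-fold brighter there, the opposite direction to the other probe on that array. On the other 4 arrays both channels were at 0.90 to 1.78 times the negative control and hold no measured difference. The array tables describe this probe by transcript variant 1 of Cxcl12 and the brighter probe by transcript variant 2, while the platform annotation pairs the brighter probe with another Cxcl12 transcript. Which isoform each probe reports is therefore not settled here, and the probe near background was not tested.

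Cxcr4 was measured by 2 probes, and both were far brighter on replicate 3 than on any other array. For probe A_52_P565353 the GFP- intensity was 364, 485, 5373, 325 and 562 on replicates 1 to 5. The GFP+ intensity was 223, 1040.03, 143983, 307 and 1063. Apart from replicate 3 the channels overlapped, at 325 to 562 in GFP- cells and 223 to 1063 in GFP+ cells. On replicate 3 the GFP+ channel was 26.8 times the GFP- channel of the same array, and 135 times the next brightest GFP+ channel. A gap this large between the brightest and the next array in the GFP+ channel was found for 1.23% of tested probes. In the GFP- channel replicate 3 was 9.57 times the next array, and 14.2% of tested probes had a gap as large.

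The log2 ratio of this Cxcr4 probe was -0.33, 0.88, 5.05, -0.23 and 0.76. The mean of 1.22 ± 2.21 (SD, n = 5) had a 95% interval from -0.80 to 3.25 and did not pass. Its adjusted p in limma was 0.834 and its unadjusted p 0.194. The exact sign-flip permutation test gave a two-sided p of 0.25. Without replicate 3 the mean fell to 0.27 ± 0.63 (SD, n = 4), so a single array sets most of the mean.

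The second Cxcr4 probe, A_52_P585124, was dimmer. Its GFP- intensity was 62.6, 44.5, 4770.5, 144 and 80.2, and it was above background in that channel on 3 of 5 arrays. Its GFP+ intensity was 313, 96.7, 71561, 88.3 and 118, above background on all 5. Replicate 3 again stood far above the others, 229 times the next array in the GFP+ channel and 33.2 times in the GFP- channel. The log2 ratio was 1.95, 0.30, 4.22, -0.94 and -0.08, with a mean of 1.09 ± 2.04 (SD, n = 5), with 0.834 as limma's adjusted p, and a mean of 0.31 without replicate 3. The normalized ratios of the Cxcr4 probes shared a sign on 3 of 5 arrays, replicates 2, 3 and 4. On replicate 1 they differed by 2.28 on the log2 scale, one below and the other above 0. The high Cxcr4 level on replicate 3 was thus seen by both probes and in both channels, whereas the direction on replicate 1 depended on the probe. On replicates 2 and 5 the GFP- channel of the dimmer probe was not well above background, so its 0.30 and -0.08 are no measured differences. From the deposited intensities, GFP+ was at least 1.15-fold brighter on replicate 2 and at least 1.12-fold on replicate 5, the same direction as the other probe.

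Ackr3, the scavenging receptor, was close to background in most channels. Its probe, A_52_P675395, had a GFP- intensity of 2146, 71.9, 48.0, 54.1 and 71.6 on replicates 1 to 5. In the GFP+ channel it had 36.7, 21.4, 57.1, 197 and 293. It was above background in GFP- cells on 1 of 5 arrays, replicate 1, in GFP+ cells on 2, replicates 4 and 5, and in both channels on none. The ratio on an array is therefore a bound at best. The bounds here are ratios of the deposited intensities, before the offset and loess, both of which change the normalized ratios given after them. On replicate 1 the GFP- channel was at least 29.9-fold brighter, with the GFP+ channel set at its detection limit of 3 times the negative control. On replicates 4 and 5 the GFP+ channel was brighter, by at least 2.49-fold and at least 2.80-fold. On replicates 2 and 3 neither channel was above background, so no difference could be measured.

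With at least 1 channel of each array not well above background, the normalized log2 ratio of Ackr3 describes the data as processed and not a measured fold. It was -4.37, -0.88, 0.13, 0.79 and 0.97. The mean was -0.67 ± 2.19 (SD, n = 5), with a 95% interval from -2.69 to 1.34. Its adjusted p in limma was 0.870 and its unadjusted p 0.454. The exact sign-flip permutation test gave p = 0.8125. Without replicate 1 the mean turned to 0.25 ± 0.83 (SD, n = 4), so the sign of the mean rests on that array.

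**Figure D2:**
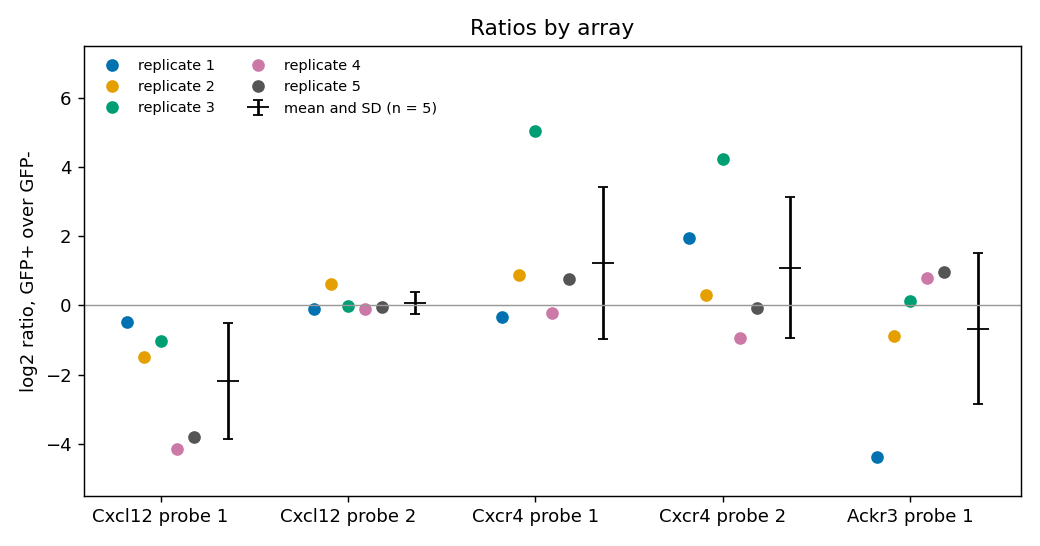
Normalized log2 ratio, GFP+ over GFP-, of each probe on each of the 5 arrays, with the mean and SD. Cxcl12 probe 1 lies below 0 on every array, Cxcr4 reaches 5.05 and 4.22 on replicate 3, and Ackr3 reaches -4.37 on replicate 1.

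The ligand and its receptors thus reached their farthest values on different arrays: Cxcl12 on replicates 4 and 5, Cxcr4 on replicate 3 and Ackr3 on replicate 1. On replicates 4 and 5, where Cxcl12 had ratios of -4.16 and -3.81, the brighter Cxcr4 probe had -0.23 and 0.76. Ackr3 was above background there in GFP+ cells alone.

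The genes whose 5 ratios lay closest to those of each member were found by the root mean square difference over the 5 arrays, among 16276 genes. For Cxcl12 these were Commd1, a regulator of endosomal sorting and NF-kB, at a difference of 0.53, then Ddah2 at 0.59 and the zinc-finger gene Zfp296 at 0.60 (log2). Commd1 had ratios of -0.45, -0.52, -0.99, -3.89 and -3.20. For Cxcr4 they were Adtrp at 0.30, Plekha8, which encodes a glycolipid transfer protein, at 0.37, and the kinase gene Cdk17 at 0.42. Adtrp had 5.47 on replicate 3 and between -0.66 and 0.83 on the others. For Ackr3 they were Adamts1, a secreted metalloprotease, at 0.34, Ripor3 at 0.35 and the ubiquitin ligase gene Herc2 at 0.36. Adamts1 had -4.69 on replicate 1 and was above background in GFP- cells on 1 of 5 arrays, as was Ackr3, so this likeness rests in part on channels near background. With 5 arrays and so many genes, close matches are a description of these arrays only.

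The wider pathway was described by 10 lists of 103 genes: ligands, receptors, proteases, signalling steps, regulators and the other chemokines. All 103 were on the array and 95 had a tested probe, and limma called 0 of the 95 in either direction. At an unadjusted p under 0.05 there were 2 higher, Cdc42 and Nfe2l2, and 1 lower, Cxcl12. That is 3.16% of the 95 genes, against 5.02% of all 17425 genes with a tested probe. Without replicate 1 the count was 14 of 95 genes, or 14.7%. The share without replicate 1 over all tested probes, counted by probe and not by gene, was 12.1%. A mean ratio above 0 was found for 49 of the 95, or 51.6%, against 49.8% of all genes, and the median was 0.07 against -0.003 for all genes. This share and this median of the pathway genes were close to those of all genes. Itch, Rgs1, Cxcl5, Cxcl9, Cxcl10, Cxcl13, Ccl3 and Ccr1 did not pass the filter on dim probes.

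**Figure D3:**
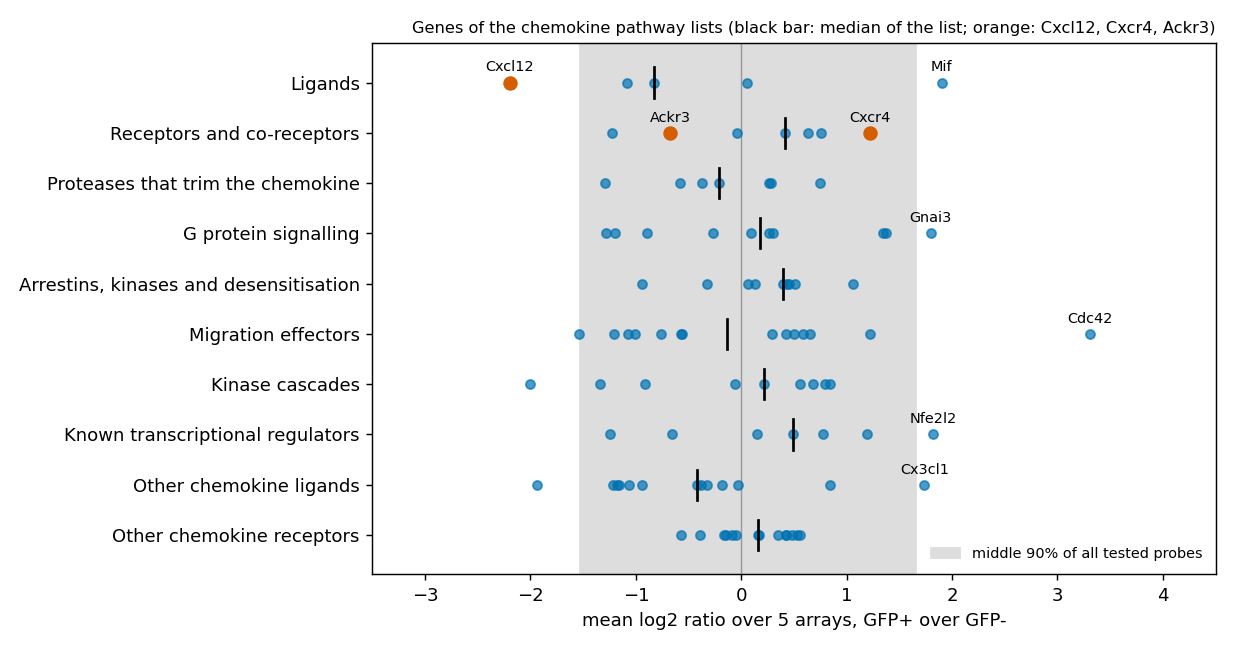
Mean log2 ratio over the 5 arrays, GFP+ over GFP-, of each tested gene of the 10 pathway lists (1 point a gene, black bar the median of the list), over the middle range of all tested probes in grey. Cdc42 at 3.31 and Cxcl12 at -2.19 are the ends of the range.

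Among the 5 ligands of these receptors, 2 means lay above 0. Mif, a cytokine that also binds CXCR4 and CD74, had a mean of 1.90 ± 2.99 (SD, n = 5), with ratios of 1.60, 5.98, 2.20, -2.44 and 2.17. It was above 0 on 4 of 5 arrays, and the exception was replicate 4, where Cxcl12 was lowest. Cxcl11, which binds CXCR3 and ACKR3, had -1.09 ± 1.35 (SD, n = 5), below 0 on 4 of 5 arrays. Neither passed, with an adjusted p of 0.834 for each in limma.

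Of the 7 receptors and co-receptors 4 means lay above 0, with a median of 0.42. Cd74, the invariant chain that also serves as receptor for MIF, had ratios of 0.00, -0.998, 0.69, -5.75 and -0.08 and a mean of -1.23 ± 2.60 (SD, n = 5). Its low mean rests on replicate 4. Of the 7 proteases that can trim the chemokine 3 lay above 0. Dpp4, the peptidase that removes the first residues of CXCL12, had -0.37 ± 0.76 (SD, n = 5), and its 2 probes had means of opposite sign. Elane, neutrophil elastase, had -1.30 ± 2.93 (SD, n = 5).

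Downstream of the receptor, 6 of 10 genes of G protein signalling had a mean above 0. Gnai3, an inhibitory G protein subunit, had 1.80 ± 1.90 (SD, n = 5), above 0 on 4 of 5 arrays. Its adjusted p in limma was 0.834 and its unadjusted p 0.0507. Gna13 had 1.37 ± 1.52 (SD, n = 5). Of the tested arrestins, receptor kinases and other desensitising genes 7 of 9 lay above 0. Arrb2, which binds both receptors, had normalized ratios above 0 on all 5 arrays but by little, at 0.44 ± 0.46 (SD, n = 5). Of probes with 5 values, 4.84% were above 0 on all 5. The deposited Arrb2 intensity was lower in GFP+ than in GFP- cells on replicate 1, 499.8 against 613.2, and on replicate 3, 1553 against 1632. Its sign on these arrays thus depends on the normalization. Rgs16, which speeds the shut-off of G proteins, had 1.31 to 1.91 on replicates 2 to 5 and -1.04 on replicate 1. Grk5, a receptor kinase, went the other way, with -2.38 to -0.85 on replicates 2 to 5 and 2.05 on replicate 1.

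Cdc42, a small GTPase of cell polarity and migration, had the highest mean of the 95 pathway genes. Its GFP- intensity was 6002, 3368, 2575, 5448 and 290.4 on replicates 1 to 5. Its GFP+ intensity was 109662, 54206, 27406, 56414 and 1252. GFP+ cells were brighter on every array, and replicate 5 was dimmest in both channels. The log2 ratio was 4.11, 3.75, 3.74, 3.15 and 1.82, with a mean of 3.31 ± 0.90 (SD, n = 5). Its adjusted p in limma was 0.834 and its unadjusted p 3.17e-04. The 4 tested probes of Cdc42 had means above 0, but only 2 of them were above 0 on all 5 arrays. The other 3 probes had 0.96 ± 3.85, 2.42 ± 1.57 and 1.30 ± 2.17 (SD, n = 5). In all, 7 of 14 migration genes had a mean above 0, and Vav2, an exchange factor for small GTPases, had -1.07 ± 1.30 (SD, n = 5).

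Of 9 genes of the kinase cascades 5 lay above 0. Map2k1, the kinase upstream of ERK, had 0.84 ± 1.11 and Jak3, a cytokine receptor kinase, -0.91 ± 1.30 (SD, n = 5). Of 7 transcription factors known to act on the pathway genes 5 lay above 0. Nfe2l2, which encodes the stress regulator NRF2, had 2.70, 3.00, 1.45, 1.67 and 0.28, with a mean of 1.82 ± 1.08 (SD, n = 5). Its adjusted p in limma was 0.834 and its unadjusted p 0.0120. Both of its tested probes were above 0 on all 5 arrays. In GFP- cells the brighter probe was above background on 4 arrays and the other on 3. Not every one of these signs is therefore a measured difference. Foxc1, also above 0 on all 5 arrays, had 0.78 ± 0.56 (SD, n = 5) with GFP- above background on 2 arrays. Hif1a, the hypoxia factor that induces Cxcl12 and Cxcr4 in other settings, ran from -2.10 on replicate 5 to 4.30 on replicate 3, with a mean of 1.20 ± 2.39 (SD, n = 5).

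For the other chemokine ligands 2 of 13 means lay above 0, and their median was -0.42. Cx3cl1, fractalkine, was the higher of those, at 1.74 ± 2.24 (SD, n = 5), with 4.69 on replicate 2 and -0.59 on replicate 1. Cxcl15 was below 0 on replicates 2 to 5, from -2.41 to -1.45, and at 0.90 on replicate 1, and its 2 probes had means of opposite sign. For the other chemokine receptors 8 of 14 lay above 0, with a median of 0.16 and a range from -0.57 to 0.56. Ccr2, a receptor of monocytes, had 0.56 ± 0.88 (SD, n = 5) and was above background on 3 of 5 arrays in GFP- cells and 4 of 5 in GFP+ cells.

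Markers of the cell types that a papilla sort could hold were set beside these values. Markers of papilla epithelium were above background for 8 of 8 tested genes in both channels of every array, so they do not go against the tissue label. Stroma markers were above background for 5 to 7 of 7 genes in GFP- cells and 6 to 7 in GFP+ cells, and leukocyte markers for 5 to 7 of 7 and 6 to 7 of 7. Pericyte markers were above background for 5 to 6 of 6 and 6 of 6, and endothelial markers for 4 to 5 of 5 in each channel. Some markers of each class were thus above background in both channels of every array, but these counts cover tested genes alone. A tested gene needed a channel above background on 3 or more arrays, so high counts are partly set by the filter. Of all probes, 57.7% to 75.3% were above background in the GFP- channel and 59.4% to 72.5% in the GFP+ channel. Pdgfrb, Kdr and Tek did not pass the filter, and Cd68 was not matched to a probe. None of the marker genes was called. Their means ran from -1.84 ± 2.50 (SD, n = 5) for Col1a1 to 2.23 ± 3.47 (SD, n = 5) for the water channel gene Aqp1. This Col1a1 probe had -6.10 on replicate 2, and the second Col1a1 probe had a mean of -0.35 ± 0.89 (SD, n = 5).

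On replicates 4 and 5, Cxcl12 was lowest in GFP+ cells relative to GFP- cells. The median ratios of the stroma, endothelial, pericyte and leukocyte markers were below 0 on these arrays as well, but single markers went both ways. On replicates 4 and 5 in turn, the pericyte medians were -0.45 and -0.54, and the leukocyte medians -0.16 and -0.72. The epithelial medians were 0.89 and -0.17. The median log2 ratio of the stroma markers was 0.35, -0.25, -0.15, -0.93 and -0.64 on replicates 1 to 5. That of the endothelial markers was 0.65, -0.59, 0.00, -1.18 and -1.12. Cxcl12 was at -4.16 and -3.81 on the latter pair of arrays. Of the 7 stroma markers, 3 were above 0 on replicate 4 and 2 on replicate 5. Pdgfra had -0.93 and -1.94 on these arrays, whereas Dcn had 1.33 and 2.41. Of the 5 endothelial markers, 1 was above 0 on each, Plvap at 1.74 and 0.82. Pecam1 had -1.01 and -0.98, and Emcn, at -6.56 on replicate 5, was lower than Cxcl12. Markers of other classes were lower than Cxcl12 on that array as well. These were the leukocyte genes Lyz2, at -8.72, and Ptprc, at -4.77, and the epithelial gene Epcam, at -4.15. The second Lyz2 probe had 0.19 there. Dcn was named here after its values were seen. The summed intensity of the stroma markers on replicate 4 was 7072 in GFP- and 6303 in GFP+ cells, and on replicate 5 it was 17126 and 7869. Over all arrays it ran from 3575 to 59882 in GFP- cells, the highest on replicate 2 from Col1a1 for the most part, and from 4307 to 8949 in GFP+ cells. The summed endothelial markers were 10089.5 and 4282 on replicate 4 and 20229 and 5321 on replicate 5. They ran from 3870.02 to 59009 in GFP- cells, the highest on replicate 3 from Vwf for the most part, and from 4144 to 7321 in GFP+ cells. The part of these cell types in the Cxcl12 result was not tested.

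On replicate 3, where Cxcr4 was high in both channels, the leukocyte markers were not. Their summed intensity there was 12265 in GFP- cells and 8251 in GFP+ cells, within the range of the other arrays, 8610.03 to 124502 and 6497 to 14219. Their median log2 ratio was 0.03, 0.33, -0.31, -0.16 and -0.72. The leukocyte gene Ptprc, which encodes CD45, had -0.09 on replicate 3 and its lowest ratio, -4.77, on replicate 5. The highest summed intensity of the endothelial markers in GFP- cells, 59009, and of the epithelial markers in GFP+ cells, 1141430.0, were on replicate 3, the former from Vwf for the most part, and their part in the Cxcr4 level was not tested.

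On replicate 1, where Ackr3 was high in GFP- cells alone, all 5 marker lists had a median ratio above 0, at 0.03 to 0.65. The GFP- intensity summed over the endothelial markers was lowest there, at 3870.02, as was that of the stroma markers, at 3575. The epithelial median was 0.06 on that array, against 2.00, 0.68, 0.89 and -0.17 on replicates 2 to 5. Cdh1, the epithelial cadherin, had 0.81 on replicate 1 and values below 0 on the others. The water channel genes were the reverse: Aqp2, Aqp1 and Aqp3 had -6.24, -3.45 and -3.31 on replicate 1 and values above 0 on replicates 2 to 5. The summed epithelial intensity on replicate 1 was 748415 in GFP- and 263444 in GFP+ cells. Aqp2 and Aqp3 were named here after their values were seen. The part of these values in the Ackr3 result was not tested.

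**Figure D4:**
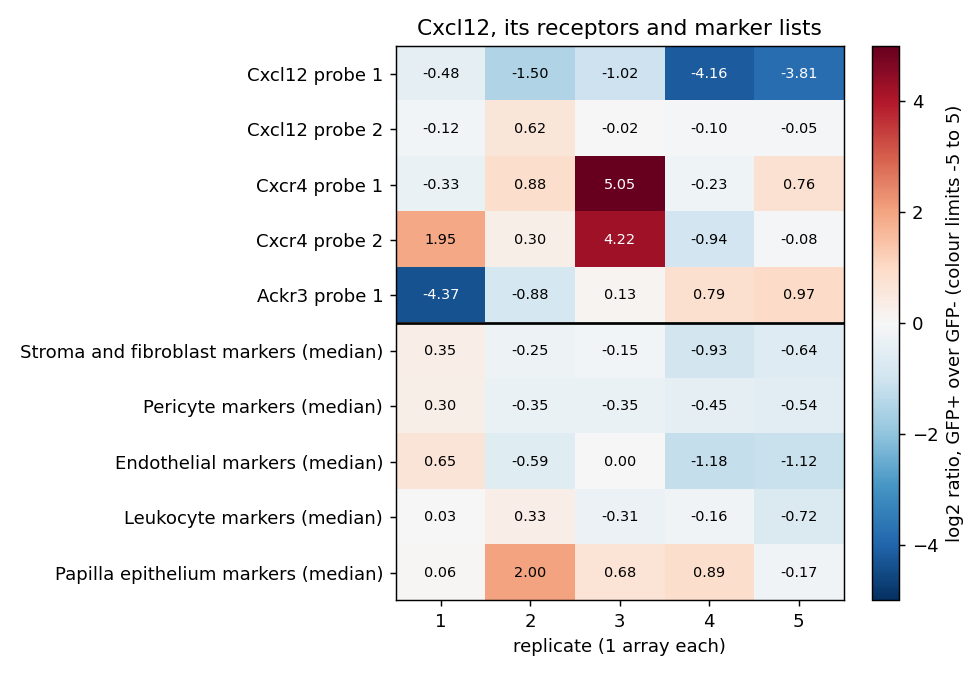
Log2 ratio, GFP+ over GFP-, on each array for the 5 probes of Cxcl12, Cxcr4 and Ackr3 (upper rows) and the median of each marker list (lower rows), colour limits -5 to 5. The marker medians lie between -1.18 and 2.00, whereas the probes reach -4.37 and 5.05.

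**Figure D5:**
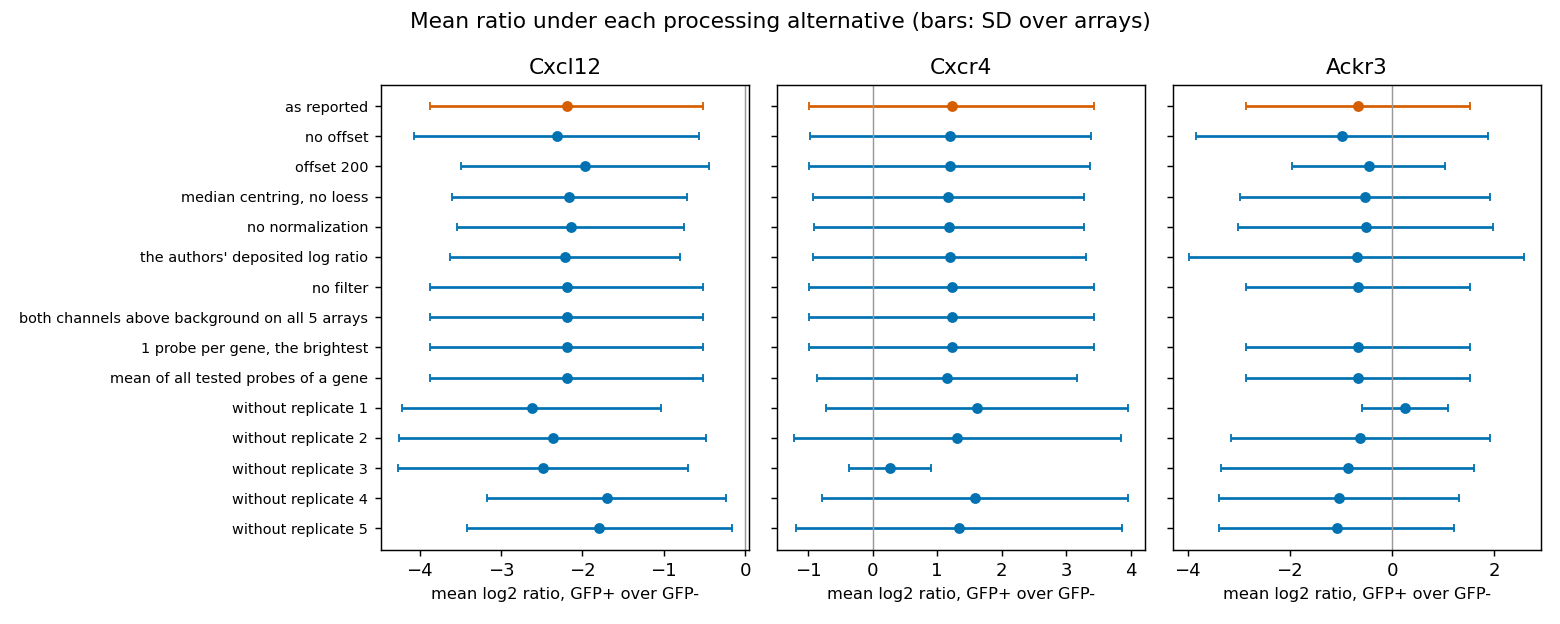
Mean log2 ratio (points) and SD over arrays (bars) of the brightest probe of Cxcl12, Cxcr4 and Ackr3 as reported and under each other way of processing. Cxcl12 stays below 0 throughout, Cxcr4 drops to 0.27 without replicate 3, and Ackr3 turns to 0.25 without replicate 1.

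Other ways of processing the arrays left these means in place, as the plot of the alternatives shows. Over changes of offset, normalization, filter and probe choice, the mean ran from -2.32 to -1.97 for Cxcl12, from 1.16 to 1.22 for Cxcr4 and from -0.99 to -0.46 for Ackr3.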

How the data were processed

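Each array compared both populations of 1 replicate. The authors deposited, per the file headers, 2 linear intensities per probe, their log10 ratio and a p-value for that array. Agilent Feature Extraction is named in the submitters' processing notes, without a version. Recomputed from the intensities, the log10 ratio equals the deposited one within 0.001 for 78.4% to 89.2% of probes. The authors' deposited log10 ratio served as an alternative, and the deposited p-value was not used. An offset of 50 was added to the intensities, each array was normalized by loess (span 0.3), and marked probes (14 to 41 an array) and controls were left out. Probes with a channel above background on 3 or more of the 5 arrays entered a test of the mean log2 ratio against 0 in limma 3.58.1 (R 4.3.3, two-sided), adjusted by Benjamini-Hochberg over all 29814. Each gene is represented by its brightest tested probe. Symbols came from the platform annotation for 32662 probes and from RefSeq accessions for 817; 45 had several symbols and 7650 none here.

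Genes were named by rule: the 3 genes themselves, the 2 of lowest unadjusted p in each pathway list with 6 further pathway genes, the lowest and highest mean of each marker list with 4 further markers, and the 3 genes closest to each member. Of the genes so named, 1 is not reported here. The members and lists were chosen with earlier results of these data known. The fit was tested on simulated data. Alternatives changed the offset, normalization, ratio, filter, probe choice, test and replicates used.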

Additional observations from a re-analysis of the deposited data

Results flagged for a closer look

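Of 66 values of the members, pathway genes and list medians examined over the 5 arrays, 12 had an array far from the other 4. The gap was most of the range. For normally distributed values the rule flags about 1 in 20 by chance. Its share over all tested probes was not computed, so the 12 are not shown to be an excess. The values are not independent, since several come from the same probe or array. Cxcr4 gave 5 of the flagged values, all on replicate 3. Its brighter probe had a log2 ratio of 5.05, against -0.33 to 0.88 on the others, and log2 intensities of 12.39 in GFP- and 17.14 in GFP+ cells, against 8.35 to 9.13 and 7.80 to 10.05. Its dimmer probe had log2 intensities of 12.22 and 16.13, against 5.48 to 7.17 and 6.46 to 8.29. On replicate 1, Ackr3 had a log2 GFP- intensity of 11.07, against 5.59 to 6.17. On replicate 2, the Cxcl12 probe near background had a log2 ratio of 0.62, against -0.12 to -0.02.

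Among the pathway genes, Cd74 had -5.75 on replicate 4, against -0.998 to 0.69. Rgs16 had -1.04 on replicate 1, against 1.31 to 1.91, and Cxcl15 had 0.90 on replicate 1, against -2.41 to -1.45. The median of the arrestin and desensitisation list was 0.54 on replicate 2, against 0.08 to 0.16, and that of the pericyte markers was 0.30 on replicate 1, against -0.54 to -0.35.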

How the results depend on the processing

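Limma called 0 probes, and 0 of the pathway genes, under each of the 14 alternatives run, with 767 to 3608 probes and 3 to 14 pathway genes at an unadjusted p under 0.05. Replicate 1 moved that count most: without it 3608 probes (12.1%) and 14 of 95 pathway genes (14.7%) were under 0.05, against 1433 (4.81%) and 3 with all arrays. Leaving out 1 array gave means from -2.62 to -1.70 for Cxcl12, from 0.27 to 1.61 for Cxcr4 and from -1.08 to 0.25 for Ackr3. The mean of Ackr3 changed sign only without replicate 1, to 0.25, and had no value where both channels had to be above background on all 5 arrays. For the second Cxcr4 probe the means ran from 0.31 to 1.60. Adjusted p over the alternatives was 0.322 to 0.977 for Cxcl12, 0.507 to 0.977 for Cxcr4 and 0.820 to 0.977 for Ackr3. The array pairs both populations, so the test of its ratios is already paired and no further block was fitted. The limits are the single dye orientation, the direction that is likely rather than stated, the amplification before labelling, and the 5 arrays. Signal over background limits Ackr3 and the dimmer Cxcl12 probe.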
